A study of Sus scrofa with 61 samples.

Results

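Matricellular proteins are secreted into the extracellular matrix, where they do not form the load-bearing fibres but bind collagens, growth factors and cell receptors and so change how cells attach, move and respond. Tenascins, thrombospondins, periostin and SPARC belong to this group, and they are known to be abundant in growing or healing connective tissue and low in most adult tissue. Fibrillin builds the microfibrils that carry elastin and hold latent TGF-beta, fibronectin is an adhesive glycoprotein on which other matrix proteins assemble, and matrix Gla protein is a vitamin K-dependent inhibitor of calcification.

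The genes described are FSTL1, TNN, TNC, POSTN, SPARC, THBS1, THBS2, FBN1, FN1 and MGP. Their probes are those that the array, or the gene lists of the study, names with one of these symbols, which gave 45 probes for the 10 genes out of 60305 probes on the array. All 45 were among the 42436 probes kept after a filter on dim spots. They were measured with a 1-colour Agilent porcine array in skeletal muscle (longissimus) of 61 pig fetuses of 4 genotypes at 90 or 110 days of gestation. Large White (LW) and Meishan (MS) are the purebreds, LWMS fetuses had an MS mother and an LW father, and MSLW fetuses had an LW mother and an MS father. Day 90 held 8 fetuses of each genotype, and day 110 held 9 LW, 7 MS, 8 LWMS and 5 MSLW fetuses. No fetus was treated, each array holds the whole muscle of 1 fetus, and litters were sired with mixed semen, so fetuses of a litter share a mother. The labels do not give the mother of each fetus, and p-values therefore measure the spread between fetuses, some of which are littermates. Littermates share their age and the breed of their mother. P-values for these factors treat littermates as independent and can therefore be too small.

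The labelled tissue was borne out by the skeletal muscle markers, since ACTA1, the actin of muscle fibres, was well above background in all 61 fetuses with group means between 18.74 and 18.99 on the log2 scale. Between 34346 and 45683 probes per array were well above background, and at most 2 spots per array were saturated. Pairs of arrays of the same group correlated at 0.954 to 0.992 over all kept probes. The lowest of these values came from the MSLW day 90 group, in which replicate 2 had a median correlation of 0.962 with the others.

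Each gene is described by its main probe, the one with the highest mean signal among its kept probes, and the other probes are given as ranges. Values are normalized signals on the log2 scale, and a difference of 1 on this scale is a doubling. The probes are 60 bases long, and the 45 probes hold 42 distinct sequences, so that some genes were measured by the same oligonucleotide at separate spots. The sequences below are a selection from the probes that the text compares, copied from the array files in the 5′ to 3′ direction. Each has at least 1 reading frame without a stop codon on the strand shown. The FBN1 probes A_72_P305894 and A_72_P088351, the THBS1 probe A_72_P151688 and the TNN probe, which are also discussed, are not printed. SPARC was read by the same sequence under the names A_72_P554191 and A_72_P130355, MGP by 2 probes that share a run of 57 bases (in capitals), and FBN1 by 2 probes that share no long run with each other.
SPARC, A_72_P554191: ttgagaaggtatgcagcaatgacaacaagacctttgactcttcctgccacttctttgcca
MGP, A_72_P762880: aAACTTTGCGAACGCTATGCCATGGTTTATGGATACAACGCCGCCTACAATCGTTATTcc
MGP, O11474: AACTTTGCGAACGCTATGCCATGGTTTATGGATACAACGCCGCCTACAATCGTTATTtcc
FBN1, A_72_P444491: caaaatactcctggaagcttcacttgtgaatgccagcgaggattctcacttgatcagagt
FBN1, A_72_P704932: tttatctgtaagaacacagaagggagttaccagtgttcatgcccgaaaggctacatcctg
The next sequence is the sole measurement of THBS2, which was often not above background, and the last 2 read POSTN and FN1 at a different place from their main probes, so that a change seen with the main probe can be set beside them.
THBS2, O6960: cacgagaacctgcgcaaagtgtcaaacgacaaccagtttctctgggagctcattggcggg
POSTN, O11455: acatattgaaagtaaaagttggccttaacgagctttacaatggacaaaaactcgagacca
FN1, O7968: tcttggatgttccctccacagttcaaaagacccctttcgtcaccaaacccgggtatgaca

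Probes with the same sequence gave nearly the same values. The median absolute gap between the paired spots over 61 fetuses was 0.10 for SPARC and 0.04 and 0.06 for the identical POSTN pairs, on the log2 scale. Within groups, deviations of the paired SPARC probes correlated at 0.941 and those of the paired POSTN probes at 0.976 and 0.977. The MGP probes with the shared run correlated at 0.969. Between probes of the same gene that share no run of 30 bases, the within-group correlation ranged from 0.788 to 0.975 in POSTN, from 0.565 to 0.962 in SPARC, from 0.554 to 0.783 in TNC, from 0.471 to 0.798 in FN1, from 0.133 to 0.854 in FBN1, from 0.129 to 0.917 in MGP and from -0.27 to 0.950 in THBS1. None of these POSTN pairs fell below 0.788, while FBN1, MGP and THBS1 each had probes with little or no correlation.

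Between day 90 and day 110 most of these genes fell in all 4 genotypes, and POSTN, TNC and FN1 fell by the widest margin. By limma with Benjamini-Hochberg adjustment at 1%, 6 of the 10 main probes were lower at day 110 in LW, where 23.5% of all kept probes were lower. In MS, 9 of 10 were lower and 1 was higher, beside 28.1% and 28.6% of all kept probes. The 9 include THBS2, which passed the filter on dim spots only through groups of day 90, so that its selection favoured a fall. In LWMS and in MSLW, 7 of the 10 were lower, beside 25.7% and 23.8% of all kept probes, and 1 was higher in MSLW (20.8%). The 10 main probes had a median log2 change of -1.48 in MS and -0.77 in LW, and the crosses lay between, at -0.97 for MSLW and -0.88 for LWMS, while the median over all kept probes lay between 0.02 and 0.04. Groups that did not overlap at all, with every fetus at day 110 below every fetus at day 90, were found for 6 members in LW (12.9% of all kept probes), 7 in MS (19.3%), 6 in LWMS (16.3%) and 7 in MSLW (15.6%). Arrays of both ages shared slides, and on each of the 7 (LW), 7 (MS), 8 (LWMS) and 5 (MSLW) slides that held both ages FSTL1, TNC, POSTN, SPARC, FBN1 and FN1 were lower at day 110.

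**Figure D1:**
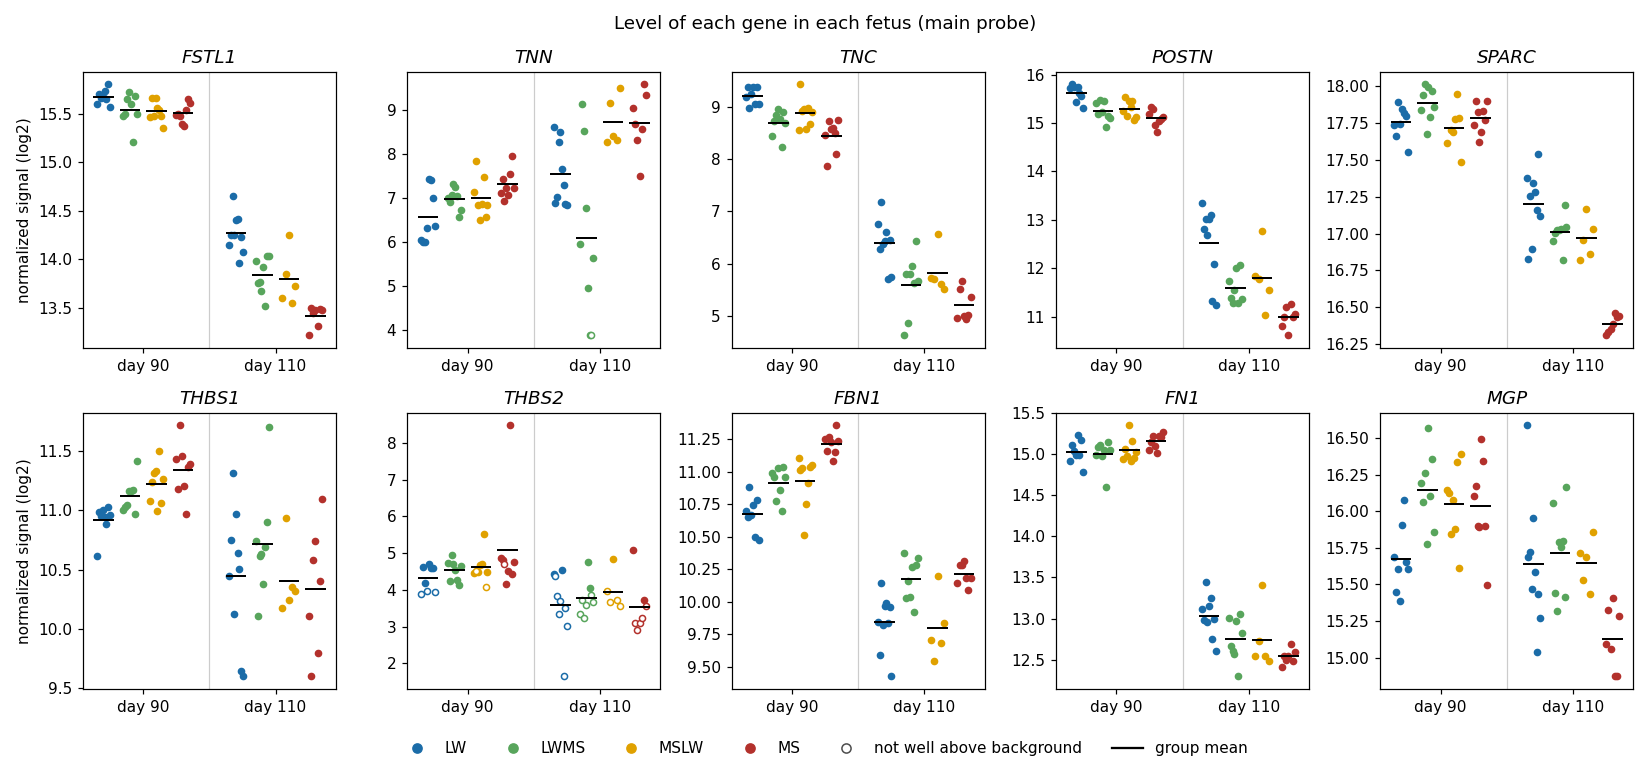
Normalized signal (log2) of the main probe of each gene in each of 61 fetuses, by gestational day and genotype, with a black line at the group mean and open circles where the spot was not well above background. FSTL1, TNC, POSTN and FN1 at day 110 lie below all day 90 values, TNN rises in 3 genotypes and spreads from 3.87 to 9.13 in LWMS at day 110, and most THBS2 spots at day 110 are open.

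Periostin (POSTN), which binds collagen and integrins and takes part in collagen fibre assembly, changed most. In LW fetuses its signal was 15.32 at the lowest, 15.67 at the median and 15.80 at the highest at day 90, and 11.25, 12.81 and 13.35 at day 110. In MS fetuses the corresponding values were 14.82, 15.11 and 15.33 at day 90 and between 10.61 and 11.26 around a mean of 10.99 at day 110. The ages were apart in both breeds, and at day 110 the MS fetuses were packed within a range that only the lowest LW fetus reached. The fall was 8.59-fold in LW (log2 change -3.10 ± 0.19, SE, adjusted p = 5.84e-21) and 17.4-fold in MS (-4.12 ± 0.20, adjusted p = 3.01e-25). LWMS and MSLW fell by 12.6-fold and 11.3-fold. The 8 other POSTN probes, probe O11455 printed above among them, changed by -3.09 to -2.74 in LW and by -4.18 to -3.81 in MS, and all passed.

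The tenascins TNC and TNN went in different directions in MS and MSLW, TNN as read by its only probe. Tenascin-C (TNC), an anti-adhesive glycoprotein known from embryonic tendon and muscle-tendon junctions, was lower at day 110 by 7.02-fold in LW (log2 change -2.81 ± 0.18, SE) and by 9.45-fold in MS (-3.24 ± 0.19), with adjusted p = 1.51e-20 and 2.97e-22. LW values ran from 8.98 through 9.21 to 9.39 at day 90 and from 5.70 through 6.43 to 7.18 at day 110 (lowest, median, highest). The MS values were 7.88, 8.54 and 8.75 at day 90 and 4.95, 5.02 and 5.66 at day 110. The ages were apart, and at day 110 all MS fetuses lay below all LW fetuses. With normexp background correction the MS change was -2.13. Probe A_72_P035426 of TNC changed by -2.41 in LW and -2.74 in MS, and the third TNC probe was well above background on 6 of the 29 arrays of day 110, so that the size of its change is not given.

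Tenascin-N (TNN, also called tenascin-W), known from developing bone and from stroma, was the only member whose main probe was higher at day 110. In MS its signal was 6.91 at the lowest, 7.23 at the median and 7.94 at the highest at day 90, and 7.48, 8.67 and 9.57 at day 110. The change was 1.40 ± 0.44 (SE, adjusted p = 0.00476) in MS and 1.73 ± 0.49 (adjusted p = 0.00215) in MSLW, and it was 0.98 ± 0.42 (adjusted p = 0.0419) in LW, which did not pass except in a fit of the purebred fetuses alone (adjusted p = 0.00454). In LWMS the change had the other sign, -0.89 ± 0.43 (adjusted p = 0.0675). The 8 LWMS fetuses of day 110 measured 5.94, 9.13, 8.51, 6.77, 4.95, 3.88, 3.87 and 5.64 in the order of replicates 1 to 8, with replicate 7 not well above background. They cover a far wider range than any other group, whose SDs lay between 0.25 and 0.73 against 1.96. The fit takes 1 estimate of the spread for all groups, so the SE given for LWMS understates its spread. Without MSLW day 110 replicate 5 the change in MSLW was 1.53 (adjusted p = 0.0116). TNN has 1 probe, and as written in the array file its 60 bases hold a stop codon in all frames while the opposite strand holds none in any frame, which is so for no other of the 45 probes. Which RNA this probe reads was not tested.

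FSTL1 (follistatin-like 1), a secreted glycoprotein of the SPARC family, was lower at day 110 by 2.65-fold in LW (log2 change -1.41 ± 0.08, SE, adjusted p = 2.00e-22) and by 4.25-fold in MS (-2.09 ± 0.08, adjusted p = 1.55e-28). Its LW values were 15.57, 15.67 and 15.80 at day 90 and 13.96, 14.25 and 14.65 at day 110 (lowest, median, highest), and its MS values 15.37, 15.49 and 15.65 at day 90 and 13.22, 13.48 and 13.50 at day 110. The breeds overlapped at day 90, and at day 110 no MS fetus reached the lowest LW fetus.

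SPARC (osteonectin), which binds collagen and calcium, fell less. LW fetuses measured 17.55, 17.77 and 17.90 at day 90 and 16.83, 17.25 and 17.54 at day 110, and MS fetuses 17.62, 17.80 and 17.90 at day 90 and 16.31, 16.39 and 16.46 at day 110. The log2 change was -0.56 ± 0.07 (SE, adjusted p = 6.18e-10) in LW and -1.39 ± 0.07 (adjusted p = 1.01e-23) in MS. The spot of 1 of 8 MSLW fetuses of day 90 was marked non-uniform and did not enter the fit. With scaling of each array to its 75th percentile the SPARC changes shrank to -0.67 in MS, -0.32 in LWMS and -0.28 in LW, and the change of -0.75 in MSLW shrank to -0.21 and no longer passed (adjusted p = 0.0427). The 7 other SPARC probes changed by -0.93 to -0.65 in LW and by -1.48 to -1.02 in MS, and all 7 passed in both breeds.

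Fibronectin (FN1) was lower at day 110 by 4.0-fold in LW (log2 change -2.0 ± 0.10, SE, adjusted p = 1.17e-24) and by 6.12-fold in MS (-2.61 ± 0.11, adjusted p = 1.55e-28). Its values in LW were 14.78, 15.01 and 15.23 at day 90 and 12.61, 13.00 and 13.44 at day 110, and in MS 15.01, 15.18 and 15.27 at day 90 and 12.41, 12.55 and 12.69 at day 110. The ages were apart in every genotype, and at day 110 the breeds overlapped, although 6 of the 7 MS fetuses lay below the lowest LW fetus. The 3 other FN1 probes, including O7968 printed above, all passed as lower in the 4 genotypes, with changes of -2.01 to -1.68 in LW and -2.64 to -2.14 in MS. Among them, A_72_P157831 shares 54 bases with the main probe.

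The thrombospondins, which bind calcium, CD47 and CD36 and, in the case of THBS1, can activate latent TGF-beta, changed less and more unevenly. THBS1 was lower at day 110 in MS (log2 change -1.01 ± 0.19, SE, adjusted p = 4.11e-06) and MSLW (-0.81 ± 0.20, adjusted p = 0.000591), and its changes of -0.48 in LW and -0.40 in LWMS did not pass (adjusted p = 0.0173 and 0.0481). The LW change passed from the median spot signal, from the deposited values, with normexp correction and with slide as a block (adjusted p between 0.00756 and 0.00939), and missed in the other 7 alternatives. At day 110 its lowest and highest LW values were 9.61 and 11.31, against 10.62 and 11.03 at day 90, and the MS values lay between 9.60 and 11.10, against 10.97 and 11.72 at day 90. Of the 6 other probes, 5 changed by -0.89 to -0.80 in MS, while probe A_72_P151688 changed by 0.50 (adjusted p = 8.43e-05), and its within-group deviations correlated at -0.01 with those of the main probe against 0.798 to 0.965 for the other 5.

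THBS2 was near the limit of detection. Its probe was well above background in 5 of 8 LW, 7 of 8 MS, 8 of 8 LWMS and 6 of 8 MSLW fetuses at day 90, and in 2 of 9, 2 of 7, 2 of 8 and 1 of 5 at day 110. The probe thus passed the filter on dim spots only through the MS and LWMS groups of day 90, and this selection favours a fall with age. The fitted change passed in MS only (log2 -1.56 ± 0.37, SE, adjusted p = 0.000227), where MS day 90 replicate 6 stood at 8.47 while the other 7 lay between 4.17 and 4.86. Without that fetus the change was -1.08 (adjusted p = 0.000864). With all fetuses it was -0.72 from the median spot signal, -0.68 from the deposited values and -0.50 with normexp correction.

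Fibrillin-1 (FBN1), the main protein of microfibrils, was lower at day 110 with each of its 4 probes in each genotype. The main probe changed most in MSLW (-1.13 ± 0.10, SE) and MS (-1.01 ± 0.09), with -0.83 ± 0.08 in LW and -0.74 ± 0.08 in LWMS, with adjusted p between 2.84e-15 and 3.79e-11. The 3 other probes changed by -0.82 to -0.79 in LW and -1.17 to -0.93 in MS, so that the age change was alike in size whichever probe was read. The LW values of the main probe were 10.47, 10.68 and 10.89 at day 90 and 9.43, 9.85 and 10.15 at day 110, and the MS values 11.08, 11.23 and 11.36 at day 90 and 10.09, 10.18 and 10.32 at day 110.

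Matrix Gla protein (MGP) was lower at day 110 in MS and LWMS and did not pass in LW or MSLW. LW fetuses measured 15.39, 15.63 and 16.08 at day 90 and 15.04, 15.58 and 16.59 at day 110, a change of -0.03 ± 0.14 (SE, adjusted p = 0.867, 95% interval -0.32 to 0.25). MS fetuses measured 15.50, 16.00 and 16.50 at day 90 and 14.87, 15.09 and 15.41 at day 110, a change of -0.91 ± 0.15 (adjusted p = 5.46e-07). No MS fetus of day 110 reached the lowest MS fetus of day 90, while LW fetuses of both ages overlapped over most of their range. LWMS changed by -0.43 ± 0.15 (adjusted p = 0.00920) and MSLW by -0.41 ± 0.17 (adjusted p = 0.0336). With 75th percentile scaling the change in MS was -0.22 (adjusted p = 0.206), and those in LWMS and MSLW turned to 0.10 and 0.13 (adjusted p = 0.595 and 0.544). In LW the change was 0.34 with that scaling, its highest value over the alternatives. The LW change passed in none of them (lowest adjusted p = 0.0480). The LWMS change also missed without the filter on dim probes (adjusted p = 0.0134) and with marked spots kept (adjusted p = 0.0105), while the MSLW change passed from the median spot signal, the deposited values, normexp correction and the mean of all probes (adjusted p between 0.00225 and 0.00983), so that the crosses are not set apart by these calls. All 6 other MGP probes were lower in MS, with changes of -1.16 to -0.84.

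**Figure D2:**
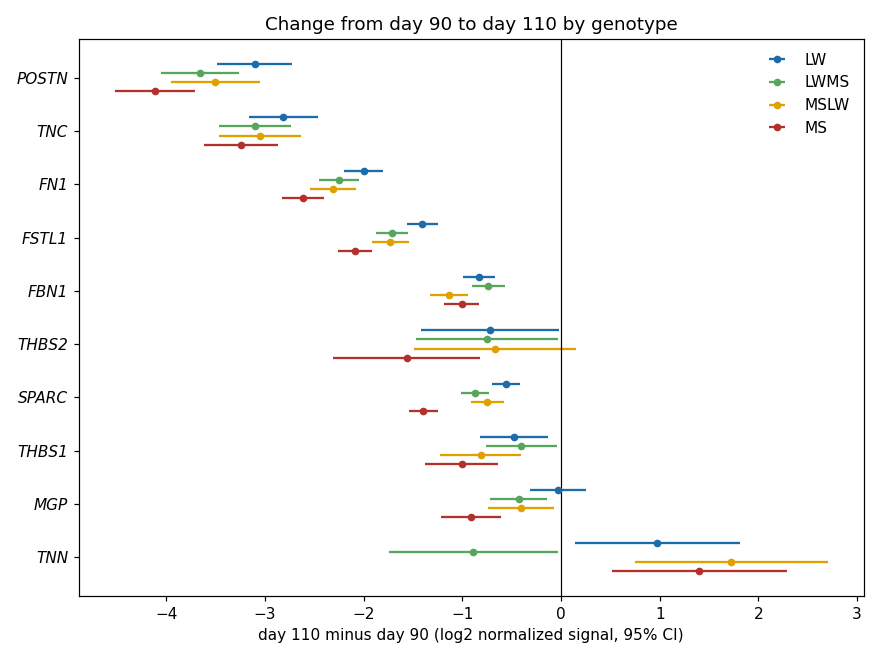
Difference between day 110 and day 90 (log2 normalized signal) of the main probe of each gene in each genotype, with 95% confidence intervals from the fit over 61 fetuses. POSTN, TNC, FN1 and FSTL1 lie far below 0 in all genotypes, MS lies furthest below 0 for 8 of the genes that fell, and TNN lies above 0 in LW, MS and MSLW.

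Markers of some other cell types moved with age as well. Over all kept probes, 23.5% were lower and 21.8% higher at day 110 in LW, and 28.1% and 28.6% in MS. Of 9 measured fibroblast and mesenchymal progenitor markers (PDGFRA, DCN, LUM, COL1A1, COL1A2, COL3A1, DPT, PI16 and CD34), 7 were lower at day 110 in LW and 8 in MS, with median changes of -0.97 and -1.70. Their summed signal on the linear scale ranged from 407971 to 541833 over the day 90 fetuses, from 145623 to 236773 in LW at day 110 and from 91999 to 119265 in MS at day 110. TNMD, the only tendon marker of 3 that was measured, changed by -2.66 in LW and -3.93 in MS, and all 4 measured cartilage and bone markers were lower in LW and 3 of 4 in MS. Of 4 proliferation markers, TOP2A, NUSAP1 and STMN1 were lower and MKI67 higher in both breeds, with medians of -2.57 in LW and -3.48 in MS, and 3 of 5 endothelial markers were lower and 1 higher in each breed (medians -0.84 and -1.14). The lists for satellite cells, smooth muscle, Schwann cells, adipocytes, leukocytes and blood had medians between -0.57 and 0.53 in LW and between -0.89 and 0.25 in MS. The summed signal of 9 muscle fibre markers ranged from 1680101 to 2092340 at day 90 and from 2029376 to 2219471 at day 110. In whole muscle, fewer cells of a type and less RNA per cell cannot be told apart, and the part of these cell types in the changes of the 10 genes was not tested.

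By the main probes, the breeds differed little at day 90 and more at day 110. At day 90, 1 of the 10 main probes was higher in MS (6.23% of all kept probes) and 1 was lower (6.61%). At day 110, 6 were lower in MS, where 15.2% of all kept probes were lower, and 1 was higher (13.7%). The median difference of MS from LW over the 10 main probes was 0.25 at day 90 and -0.50 at day 110, beside medians over all kept probes of -0.00070 and 0.0079. Over all 45 probes of the 10 genes the medians were -0.06 and -0.67, so the positive median at day 90 depends on the choice of probe. The main probe that was higher in MS at both days was that of FBN1, whose breed difference varied between probes, as given below.

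At day 110 the widest differences of MS from LW were those of POSTN (-1.52 ± 0.20, SE, 2.88-fold, adjusted p = 8.19e-09) and TNC (-1.18 ± 0.18, 2.27-fold, adjusted p = 5.16e-07). The difference was -0.85 ± 0.08 for FSTL1 (adjusted p = 1.74e-12), -0.81 ± 0.07 for SPARC (adjusted p = 1.18e-13), -0.51 ± 0.15 for MGP (adjusted p = 0.00431) and -0.49 ± 0.10 for FN1 (adjusted p = 0.000112). In FSTL1, TNC and SPARC the 7 MS fetuses did not overlap the 9 LW fetuses, which was so in this direction for 4.50% of all kept probes. On the 6 slides with both breeds at day 110, FSTL1, TNC, POSTN, SPARC and FN1 were lower in MS each time and MGP on 5 of them. Over the other probes, all 8 of POSTN, all 7 of SPARC, all 6 of MGP, all 3 of FN1 and TNC probe A_72_P035426 were lower in MS. Of the 9 fibroblast markers, 5 were lower in MS at day 110, with a median difference of -0.56, and of the 4 proliferation markers 3 were lower, with a median of -0.99. Over all kept probes 15.2% were lower. The part of these cells was not tested. At day 90 TNC was the member whose main probe passed as lower in MS, by -0.75 ± 0.18 (adjusted p = 0.00137), with no overlap between the breeds (3.65% of all kept probes), and with the mean of its probes it missed (-0.59, adjusted p = 0.0122). The POSTN main probe differed by -0.51 at day 90 without passing (adjusted p = 0.0569), and it was lower in MS on all 8 slides, as was TNC. Among the other probes at day 90, 3 of 8 of POSTN, 1 of 2 of TNC and 1 of 7 of SPARC passed as lower in MS. Of those of MGP, 2 of 6 passed as higher. The SPARC main probe differed by 0.03 at day 90, while its 7 other probes differed by -0.76 to -0.14. The TNC difference at day 110 was -0.79 from the median spot signal and -0.59 with normexp correction, the MGP difference was -0.24 with 75th percentile scaling (adjusted p = 0.208), and the SPARC difference was then -0.47.

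THBS1, THBS2 and TNN did not pass in either comparison of the breeds. TNN was 1.16 ± 0.43 (SE) above LW in MS at day 110 with adjusted p = 0.0267, and the difference passed in 4 of 10 alternatives, in a fit of the purebred fetuses alone (adjusted p = 0.00231), from the median spot signal (adjusted p = 0.00988), from the deposited values (adjusted p = 0.00962) and with normexp correction (adjusted p = 0.00672). In the fit of the purebred fetuses alone the MGP difference at day 110 missed the threshold (adjusted p = 0.0106). THBS1 differed by 0.42 ± 0.18 at day 90 (adjusted p = 0.0949) and by -0.11 ± 0.18 at day 110 (adjusted p = 0.656).

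The FBN1 probes did not give the same breed difference. The main probe was higher in MS by 0.54 ± 0.08 (SE, adjusted p = 1.44e-06) at day 90 and by 0.37 ± 0.09 (adjusted p = 0.000396) at day 110, and at day 90 all 8 MS fetuses lay above all 8 LW fetuses (3.09% of all kept probes). This probe, A_72_P305894, is not named FBN1 by the array but by a list of probes with an age-by-genotype interaction that was drawn up from these same fetuses. The 3 probes that the array names FBN1 differed by -0.12 to -0.05 at day 90, none passing, and by -0.49 to -0.20 at day 110, where probe A_72_P088351 passed (adjusted p = 2.22e-07). The probes printed above, A_72_P444491 and A_72_P704932, differed by -0.26 ± 0.17 and -0.20 ± 0.15 at day 110. Deviations of the main probe correlated at 0.260 to 0.481 with those of the other 3. A breed difference in FBN1 is therefore given for each probe and not for the gene.

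**Figure D3:**
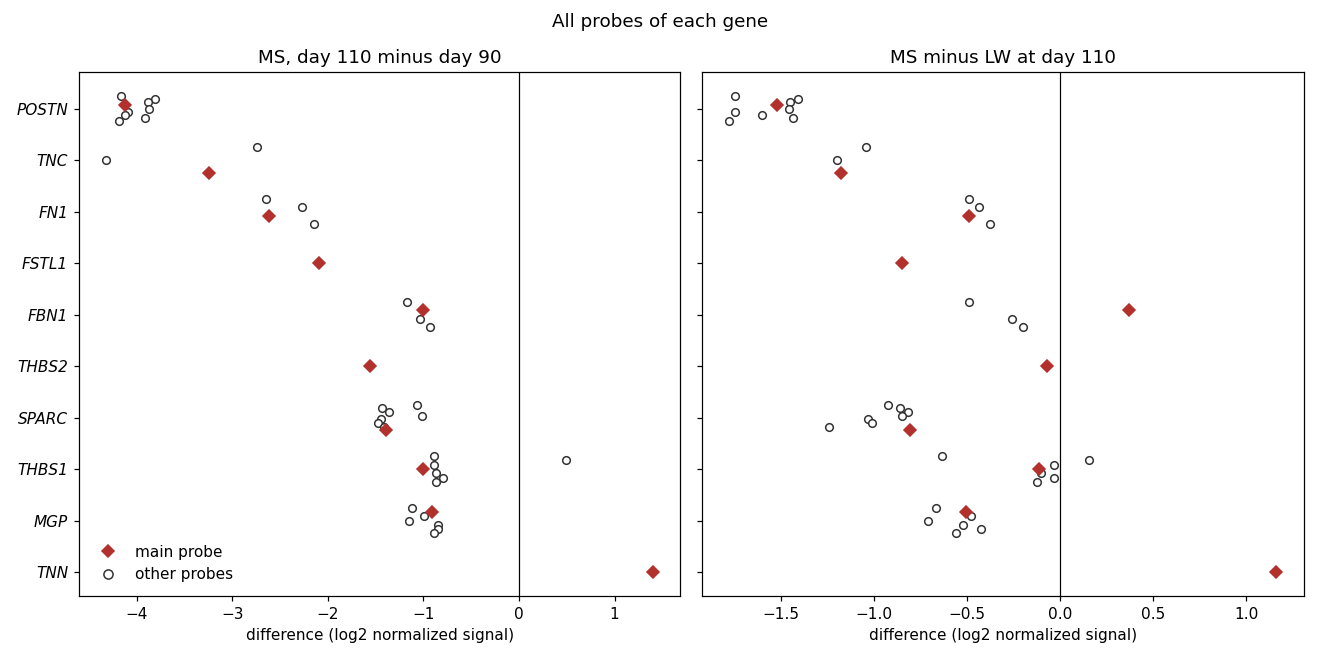
Log2 difference of each of the 45 probes between ages in MS (left) and between MS and LW at day 110 (right), by gene, with the main probe as a red diamond and the others as open circles. Probes of POSTN, SPARC, FN1 and MGP lie close together on the same side of 0, the FBN1 main probe lies above 0 on the right while the other 3 lie below, and 1 THBS1 probe lies apart on the left.

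Whether the fall with age differed between the breeds was tested directly. The age change was more negative in MS than in LW for 5 of the 10 main probes, where 3.39% of all kept probes were called in this direction. The difference was -1.02 ± 0.28 (SE) for POSTN (adjusted p = 0.00966), -0.88 ± 0.21 for MGP (adjusted p = 0.00282), -0.84 ± 0.10 for SPARC (adjusted p = 5.77e-08), -0.68 ± 0.12 for FSTL1 (adjusted p = 4.61e-05) and -0.61 ± 0.14 for FN1 (adjusted p = 0.00272). Probes of 6 of the 10 genes, and the main probes of 5, are on the interaction list that was drawn up from the same fetuses, so these calls are not independent evidence of that direction.

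The interaction held unevenly over probes and settings. None of the 7 other SPARC probes passed (-0.72 to -0.37), 5 of the 8 other POSTN probes and 5 of the 6 other MGP probes did, and 1 of the 3 other FN1 probes did. These counts take overlapping probes as separate. FN1 probe A_72_P157831 shares 54 bases with the FN1 main probe, some POSTN probes have the same sequence, and some MGP probes share 51 or 57 bases. The POSTN value missed the threshold with adjusted p = 0.0105 from the median spot signal, 0.0102 from the deposited values, 0.0105 with normexp correction, 0.0147 without the filter on dim probes, 0.0255 in the purebred fetuses alone and 0.0117 without MS day 90 replicate 6 (-1.02). MGP was at -0.56 (adjusted p = 0.0631) and SPARC at -0.39 (adjusted p = 0.00917) with 75th percentile scaling. With the mean of all its probes SPARC was at -0.58 and missed the threshold (adjusted p = 0.0556). Fibroblast markers were again lower in the same direction, with 6 of 9 called and a median of -0.64, as were proliferation markers, with 3 of 4 called and a median of -0.92, and their part was not tested. Over all kept probes 3.39% were called in this direction.

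The crosses were compared with the mean of the purebreds, the mid-parent value. None of the 10 main probes passed in limma at day 90 (0.0495% of all kept probes called) or at day 110 (0.0778%), with differences between -0.13 and 0.25 at day 90 and between -0.72 and 0.30 at day 110. The unadjusted p was under 0.05 for 1 member at day 90 and 3 at day 110. Both crosses had means between those of the purebreds for 7 members at day 90 (37.5% of all kept probes) and for 5 members at day 110, namely FSTL1, TNC, POSTN, SPARC and FN1 (45.1%). For POSTN at day 110 the order of the means was LW at 12.51 ± 0.78 (SD, n = 9), MSLW at 11.79 ± 0.63 (n = 5), LWMS at 11.58 ± 0.32 (n = 8) and MS at 10.99 ± 0.22 (n = 7), and no neighbours in that order differed past the threshold. For FSTL1 the order was LW at 14.27 ± 0.20, LWMS at 13.83 ± 0.19, MSLW at 13.80 ± 0.28 and MS at 13.42 ± 0.11, where LW stood apart from LWMS (adjusted p = 6.01e-05) and MSLW from MS (adjusted p = 0.00611) but the crosses did not stand apart from each other. SPARC had the same order, and there the step from MSLW at 16.97 ± 0.14 to MS at 16.39 ± 0.06 passed (adjusted p = 1.46e-06).

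The reciprocal crosses, which differ in which breed supplied the mother and which the father, were compared with each other. Both parents are swapped together, so this comparison cannot assign a difference between the crosses to the mother or to the father. At day 90 no member passed in limma (0.500% of all kept probes called; 1 member at an unadjusted p under 0.05), with differences of MSLW from LWMS between -0.17 and 0.18. At day 110, 1 member was higher in MSLW (0.542% of all kept probes), namely TNN, by 2.64 ± 0.49 (SE, 6.23-fold, adjusted p = 0.000441). The fit takes 1 estimate of the spread for all groups, while the SD of TNN was 1.96 in LWMS and 0.56 in MSLW. This SE therefore understates the spread of the LWMS group, and the p-value can be too small. TNN was read by 1 probe, and which RNA that probe reads was not tested. The 5 MSLW fetuses measured 8.27, 9.15, 8.41, 8.30 and 9.50, all above 6 of the 8 LWMS fetuses, whose wide range of 3.87 to 9.13 overlapped theirs. On the 5 slides that held both crosses MSLW was above LWMS each time, by 0.64 to 3.86. The difference was 1.73 with normexp correction. FBN1 differed by -0.38 ± 0.10 at day 110 (adjusted p = 0.0169), and without MSLW day 110 replicate 3 the difference was -0.48 and passed (adjusted p = 0.00217).

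**Figure D4:**
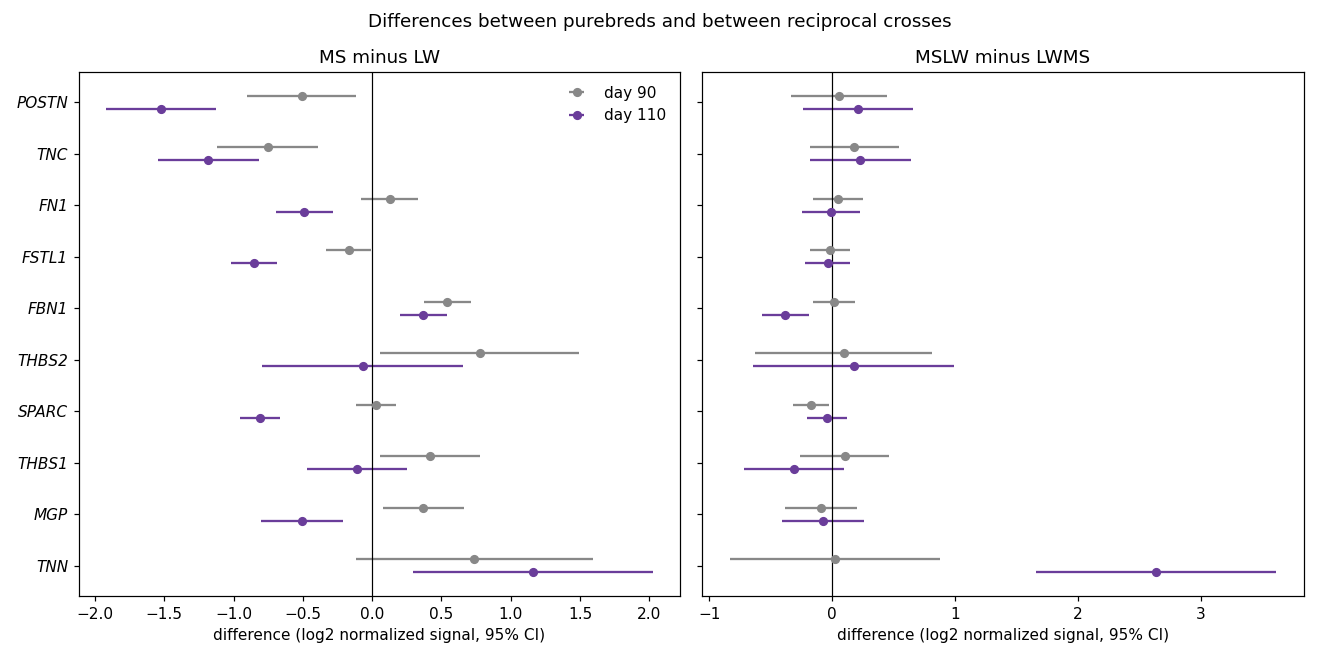
Log2 differences of the main probes, MS minus LW (left) and MSLW minus LWMS (right), at day 90 (grey) and day 110 (purple), with 95% confidence intervals. On the left the day 110 values of POSTN, TNC, FSTL1, SPARC, MGP and FN1 lie below 0, and on the right TNN at day 110 is the value furthest from 0.

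In the model with maternal and paternal genotype, the age change was more negative with an MS mother than with an LW mother for 2 members (1.89% of all kept probes in this direction). These were SPARC (-0.46 ± 0.08, SE, adjusted p = 6.22e-05) and FSTL1 (-0.33 ± 0.08, adjusted p = 0.00836). With an MS father it was more negative for 1 member (0.325%), SPARC (-0.37 ± 0.08, adjusted p = 0.00465), and the FSTL1 value was -0.35 ± 0.08 (adjusted p = 0.0158). For TNN the value was -1.17 ± 0.45 for the mother (adjusted p = 0.0929) and 1.55 ± 0.45 for the father (adjusted p = 0.0626), and neither passed. None of the 7 other SPARC probes passed for either parent, and the SPARC values were -0.23 and -0.15 with 75th percentile scaling, neither passing. The maternal FSTL1 value missed the threshold without MSLW day 110 replicate 2 (-0.32, adjusted p = 0.0124) or replicate 3 (-0.28, adjusted p = 0.0219), and without replicate 3 the paternal values of FSTL1 (-0.40) and FN1 (-0.41) passed. From the median spot signal, the deposited values or normexp correction the FSTL1 value missed for the mother and passed for the father. Whether maternal and paternal values differ from each other was not tested. The SPARC main probe is on the study's lists for the maternal and for the paternal genotype, and those of FSTL1, TNN and MGP are on the paternal list. These lists were drawn up from the same fetuses, so the calls are not independent evidence.

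Some members varied together from fetus to fetus. After group and slide means were removed, FSTL1 correlated with FN1 at 0.840, POSTN with FN1 at 0.789, FSTL1 with POSTN at 0.719 and TNC with POSTN at 0.633 over 61 fetuses, while TNN and TNC stood at -0.17. These values describe fetuses whose arrays share scanner, slide layout and normalization, and no test was made. The annotated genes outside the 10 that were most alike in this measure were ASPN (0.855), COL8A2 (0.815) and THY1 (0.793) for FSTL1, IGFBP7 (0.854), COL1A2 (0.809) and DAB2 (0.799) for POSTN, and COL3A1 (0.853), COL1A2 (0.842) and FNDC1 (0.807) for FN1. FNDC1 (0.681) was also the closest to FBN1, COL21A1 (0.660) to SPARC and CTSS, a protease of macrophages, to MGP (0.683). The closest genes were C4ORF48 for TNC (0.719), GBP1 for THBS1 (0.643), FZD9 for THBS2 (0.574) and ZNF212 for TNN (0.551).

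**Figure D5:**
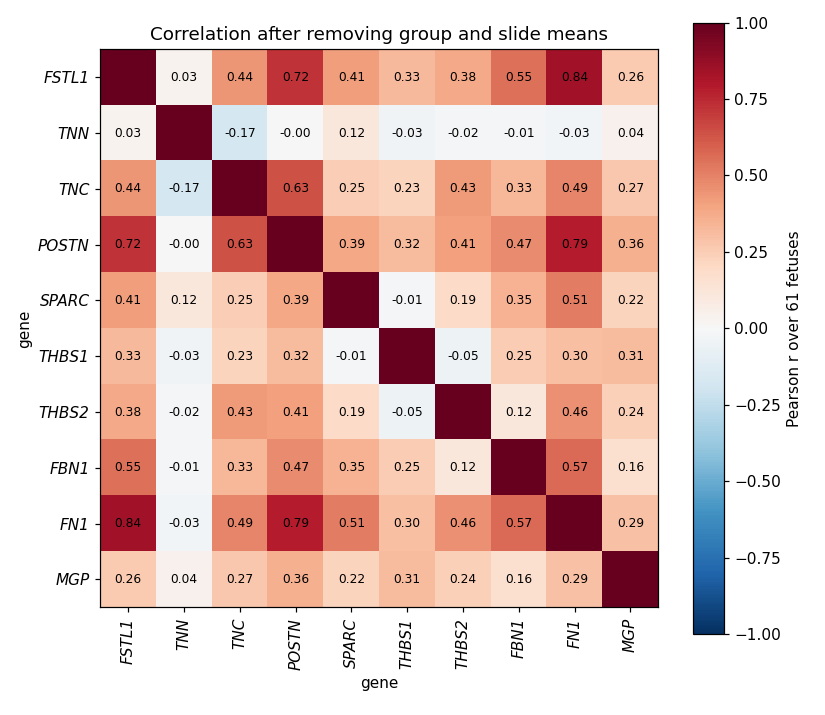
Pearson correlation of the main probes of the 10 genes over 61 fetuses after removal of group and slide means, with the value in each cell. FSTL1, POSTN and FN1 form the block of highest values (0.719 to 0.840), and TNN is near 0 with the others.

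Relatives of the 10 genes were read from 4 lists of related genes. Their counts stand beside the shares over all kept probes, which for the age change were 23.5% lower and 21.8% higher in LW and 28.1% lower and 28.6% higher in MS. Of 15 measured matricellular relatives (of 23 listed), 8 were lower and 3 higher at day 110 in LW and 10 lower and 3 higher in MS, with medians of -0.33 and -0.95. SPOCK3, a proteoglycan of the SPARC family, changed by -2.55 in LW and -3.38 in MS, THBS4, a thrombospondin of tendon and muscle, by -2.24 and -2.51, THBS3 by -1.24 and -1.61 and TGFBI, a relative of periostin, by -0.68 and -1.32. All 4 passed in both breeds. In MS against LW at day 110, 9 of the 15 were lower and none higher (15.2% and 13.7% of all kept probes), with a median of -0.49.

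Microfibril and elastic fibre genes were more mixed, with 5 of 15 lower and 1 higher in LW and 7 lower and 2 higher in MS (medians -0.15 and -0.40). EMILIN1, which lies between elastin and microfibrils, changed by -1.73 in LW and -2.40 in MS, EMILIN2 by -0.62 and -1.99 and FBN3, a fibrillin of fetal tissue, by -1.47 and -1.84. EFEMP1 (fibulin-3) rose, by 1.57 and 1.11. At day 110, 6 of the 15 were lower in MS than in LW and none was higher (15.2% and 13.7% of all kept probes).

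Among 10 measured receptors of these proteins, 3 were lower and 2 higher in LW, shares near those over all kept probes, and 5 were lower and 1 higher in MS. CD47, a thrombospondin receptor, changed by -0.93 and -1.09, the integrin subunit ITGAV by -0.64 and -0.80, and CD36, a fatty acid transporter that also binds thrombospondins, by 1.02 and 1.12. ITGA9, an integrin subunit that binds tenascin-C, changed by -1.18 in MS and passed, while its value of -0.23 in LW did not. Of 11 measured regulators and processing enzymes, 5 were lower and none higher in either breed. The 3 TGF-beta ligands, which regulate many matrix genes, were all lower, with changes of -1.56 in LW and -2.35 in MS for TGFB3, -0.98 and -1.43 for TGFB1 and -0.93 and -1.14 for TGFB2. VKORC1, which recycles the vitamin K that MGP carboxylation needs, changed by -0.56 and -0.66.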

How the data were processed

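Total RNA of longissimus muscle was labelled with Cy3 and hybridised to a porcine 8x60K Agilent array, 1 array per fetus. The authors deposited scanner files (Agilent Feature Extraction 10.10.1.1, per the submitters' processing notes) with the intensity of every spot, not normalized between arrays, and a table of log2 values of 44368 spots that they had quantile normalized. The genome build behind the probes is not given in the sources used here.

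From the deposited intensity, control spots were left out, non-uniform spots, 4 to 802 on an array, were treated as missing, and the background-corrected signal was quantile normalized and log2 transformed. Spots of the same probe were averaged. Probes entered the tests if 80% or more of the arrays in any of the 8 groups had them well above background. Groups came from the labels. All 61 arrays were fitted with limma 3.58.1 in R 4.3.3, with 11 contrasts of the group means and with a parental model (age, maternal and paternal genotype and pairwise interactions), and p-values were adjusted over all kept probes (Benjamini-Hochberg, 1%). All tests were two-sided. The sow, a random effect in the methods of the study, could not be fitted, since no label gives it. The script was tested on simulated data. A median of 41982 probes per array exceeded background by that criterion. The number of arrays limits the precision, as does the number of litters for age and for the breed of the mother.

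Named genes outside the 10 were, for each member, the 3 annotated genes most alike by Pearson correlation after removal of group and slide means (the first for some members), and from each related list the 4 with the largest mean age change over genotypes. Members and lists were chosen with earlier results of these data known. The alternatives were the median spot signal, the deposited log2 values, normexp correction with an offset of 50, scaling to the 75th percentile, no filter or a stricter filter, marked spots kept, slide as a block, the mean of all probes of a gene, purebred fetuses alone and single fetuses left out. Rows of the deposited table were matched to spots by row number, which gave a rank correlation of at least 1.00 with the median spot signal on every array.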

Additional observations from a re-analysis of the deposited data

Results flagged for a closer look

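In 9 of the 80 combinations of member and group a fetus stood apart from the rest of its group by Dixon's criterion, which chance alone meets in about 1 of 20 groups. In THBS2, MS day 90 replicate 6 stood at 8.47 while the others lay between 4.17 and 4.86, MSLW day 90 replicate 6 at 5.53 (others 4.09 to 4.71) and MS day 110 replicate 1 at 5.09 (others 2.92 to 3.72). In THBS1, LW day 90 replicate 1 stood at 10.62 (others 10.89 to 11.03), LWMS day 90 replicate 8 at 11.42 (others 10.97 to 11.18) and MSLW day 110 replicate 2 at 10.94 (others 10.18 to 10.36). FN1 stood at 14.6 in LWMS day 90 replicate 6 (others 14.97 to 15.15) and at 13.4 in MSLW day 110 replicate 3 (others 12.49 to 12.72), and TNC stood at 6.56 in the same MSLW fetus (others 5.51 to 5.73). All are log2 normalized signals.

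By the interaction test in limma, MS and LW differed in how far these genes changed with age, with MS minus LW at -1.02 for POSTN, -0.88 for MGP, -0.84 for SPARC, -0.68 for FSTL1 and -0.61 for FN1. The age change differed with the breed of the mother by -0.46 for SPARC and -0.33 for FSTL1, and with the breed of the father by -0.37 for SPARC. As given above, these calls held unevenly over probes and settings. Some of the probes are on lists of the study that were drawn up from the same fetuses.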

How the results depend on the processing

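The counts of called members stayed within 1.5 times of the value given for the age changes in the 4 genotypes, MS against LW at day 110, the interaction of age and breed, and the comparisons with the mid-parent and at day 90 between reciprocal crosses, under every alternative that was run. MS against LW at day 90 gave 2 members, but 0 with the mean of all probes and 1 with the main probe taken among array-named probes, an alternative added after seeing the data. MSLW against LWMS at day 110 gave 1, but 0 where probes had to be well above background on all arrays, since TNN then left the test. Age by maternal genotype gave 2, but 1 from the median spot signal, the deposited values, normexp correction, without the filter or with the mean of all probes, and 0 with 75th percentile scaling. Age by paternal genotype gave 1, but 2 from the median spot signal, the deposited values or normexp correction, and 0 with 75th percentile scaling, marked spots kept or the mean of all probes. Leaving out each MSLW fetus of day 110 in turn gave 1 to 2 for MSLW against LWMS at day 110, 1 to 2 for maternal and 1 to 3 for paternal genotype, and 7 to 8 for the age change in MSLW. The MGP change in LWMS reversed to 0.0974 with 75th percentile scaling. The difference of MS from LW in FBN1 reversed to -0.1459 at day 110 with the mean of all probes, and with array-named probes to -0.123 at day 90 and -0.491 at day 110. Over all single values of members, 1602 comparisons with an alternative stayed on the same side of the threshold, 29 lost it and 19 gained it. In 4 more, a value that had passed changed sign. Sign changes of values that did not pass are counted among the 1602. Such a change was that of MGP with age in MSLW, which went from -0.41 to as high as 0.13. Causes were not tested. 

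Over all kept probes, the interaction of age and breed called 1085 higher and 1439 lower, and 1937 and 1238 with 75th percentile scaling. Age by paternal genotype called 58 and 138, and 112 and 121 with that scaling, 114 and 161 with slide as a block and 111 and 197 without MSLW day 110 replicate 3. Age by maternal genotype called 1293 in both directions together, and 2143 with slide as a block. MSLW against LWMS at day 110 called 230 and 157, and 130 and 108 without MSLW day 110 replicate 3. Crosses against the mid-parent called 21 at day 90 and 33 at day 110, and as few as 4 and 9 with the stricter filter. No paired analysis was possible because the labels number fetuses individually and give no litter or shared replicate number, and slide, which arrays of several groups share, was fitted as a block in its place. THBS2 and the third TNC probe were limited by signal near background.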
